A study of Mus musculus with 6 samples.

Results

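The ID (inhibitor of DNA binding) proteins and the E proteins that they sequester were examined in murine acute myeloid leukemia (AML). The 7 genes were taken by symbol from the 41128 genes of the expression table: the ID genes *Id1*, *Id2*, *Id3* and *Id4*, and the E protein genes *Tcf3* (E2A), *Tcf12* (HEB) and *Tcf4* (E2-2). Leukemias were initiated by retroviral *Hoxa9* in KIT+ bone marrow (BM) cells of C57BL/6 background. The question was how co-expression of *IRX3*, a homeobox gene of the Iroquois family, altered transcription in *Hoxa9* leukemia cells. The *Hoxa9*/MTV cohort (mice 1.1, 1.2 and 1.4) carried *Hoxa9* together with the empty vector MTV, and the *Hoxa9*/*IRX3* cohort (mice 3.2, 3.3 and 3.5) carried *Hoxa9* together with human *IRX3*. All cells thus expressed introduced *Hoxa9*, and no library came from normal marrow. Transduced CD45.1+ cells had been selected with drugs and grown out in irradiated CD45.2+ recipients, so each library (1 per mouse) held the donor-derived KIT+Gr1+ leukemia cells sorted from the BM of 1 recipient after storage in the frozen state. Ages at death were not given in the labels.

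E proteins are basic helix-loop-helix (bHLH) transcription factors that bind the E-box, CANNTG, as homodimers or with tissue-restricted bHLH partners. ID proteins have the helix-loop-helix but lack the basic region that contacts DNA, so an E protein held by an ID protein cannot bind the E-box. The balance between both families is best known from lymphocytes, where E proteins drive early B and T cell programs and ID proteins oppose them. *Id1* and *Id2* are also transcribed in myeloid progenitors, and *Id1* is a classical target of BMP signaling through SMAD proteins.

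The E-box letters occur in the start regions of some of the genes themselves. RefSeq windows of 300 bases (250 before to 50 after the start site, build GRCm38.p6) were matched by symbol for 5 of the 7 genes, *Id2*, *Id3*, *Id4*, *Tcf3* and *Tcf12*, and *Tcf12* had 3 windows. The following stretches, 5′ to 3′ on the gene's strand with the E-box in capitals, are shown because they carry the letters that E proteins recognize.
Id2, chr12:25096271-25096300, minus strand: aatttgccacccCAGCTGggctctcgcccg
Tcf3, chr10:80433672-80433701, minus strand: agtgggcgtggtCACTTGggggcgtggctt
Tcf12, chr9:72112042-72112069, minus strand: agatgctgccCAGCTGcgtccccgtcgc
The CAGCTG of *Id2* began 196 bases before its start site, the CACTTG of *Tcf3* 54 bases before, and the CAGCTG of *Tcf12* 240 bases before the most distal of its starts. All 3 *Tcf12* windows held an E-box, and the others, not shown, were CATGTG 5 bases before and CAAGTG 149 bases before a start, and CACTTG within the 50 bases after one. The windows of *Id3* and *Id4* held no E-box. The letters CANNTG, searched on both strands, was present in 72.3% of all 32851 windows, and CAGCTG, which is one form of it, in 16.3%. Letters in a window are a description, and the RNA data measured no binding.

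The libraries held 7979246 to 9803621 reads each. Of the genes of the gate, *Kit* averaged 2.75 ± 0.332 RPKM (SD, n = 3) in *Hoxa9*/MTV and 2.16 ± 0.535 in *Hoxa9*/*IRX3* mice, and *Ly6c2*, which encodes a part of the Gr1 antigen, 443.7 ± 33.1 and 683 ± 234. *Ly6g*, the other Gr1 gene, was low, at 0.108 ± 0.0483 and 1.08 ± 0.373 RPKM, and was the only gate marker called (change 1.35, limma adjusted p = 0.0205). RPKM count reads relative to gene length and library depth. *Irx3* (mouse gene, 0 RPKM in all *Hoxa9*/MTV mice) stood at 15.1 RPKM in mouse 3.2, 0.421 in mouse 3.3 and 0.148 in mouse 3.5. The introduced gene was human and the table holds mouse genes, so these values check the labels only in part, and mice 3.3 and 3.5 rested on 14 and 4 reads. *Hoxa9* was at 174 to 363 RPKM in *Hoxa9*/MTV and 154 to 242 in *Hoxa9*/*IRX3* mice. Library profiles correlated at r = 0.978 to 0.983 among *Hoxa9*/MTV mice, but at 0.917 to 0.925 among *Hoxa9*/*IRX3* mice and 0.894 to 0.918 between cohorts (log2 scale, across genes of the same libraries). Over all genes the median SD between mice was 0.16 on the log2 scale in the *Hoxa9*/MTV cohort and 0.32 in the *Hoxa9*/*IRX3* cohort.

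The length by which the deposited RPKM divide included introns for the E protein genes, which lowers their values against compact genes. It was 1160 bases for *Id1*, all of it exon, and 2292 for *Id2*, but 24134 for *Tcf3*, 269184 for *Tcf12* and 343823 for *Tcf4*. To compare levels between genes, reads were therefore also expressed per kilobase of merged exon with the same scaling to the library, called the exon level here. Reads within introns were not separated. Any such reads would raise the exon levels of the E protein genes and their sums, and would lower the ratios of ID to E protein transcripts given below. For *Id2* the merged exons were capped at the recovered 2292 bases, so its exon level equals its RPKM. On this scale the order in both cohorts was *Id1*, then *Tcf3*, then *Id2* or *Tcf12*, then *Tcf4*, with *Id3* and *Id4* at or near 0. Mean exon levels over the 6 mice were 63.6 for *Id1*, 23.9 for *Tcf3*, 12.2 for *Id2*, 8.19 for *Tcf12* and 4.02 for *Tcf4*. The neighbors *Id2* and *Tcf12* overlapped in both cohorts, *Tcf3* and *Id2* overlapped in the *Hoxa9*/MTV cohort through mouse 1.4, and *Id1* and *Tcf3* overlapped in the *Hoxa9*/*IRX3* cohort, where *Id1* in mouse 3.5 (18.7) was below *Tcf3* in all 3 mice (19.95 to 23.6). *Tcf4* in mouse 3.3 (6.48) also lay above *Id2* in mouse 3.2 (6.40). The lower places depended on the length used. Per length of the principal transcript *Tcf12* lay above *Id2* in all mice but 1.4, at 18.4 to 22.7 against 7.45 to 14.2. In mouse 1.4 *Tcf12* was at 20.1 and *Id2* at 35.2. On this length *Tcf4* was at 20.7 in mouse 3.3 and 17.5 in mouse 3.5, above *Id2* (8.39 and 10.4) in both. It was above *Tcf12* (18.5) in mouse 3.3. *Tcf4* was also above *Id2* in mouse 1.1 (12.3 against 9.36), but below it in mice 1.2, 1.4 and 3.2.

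**Figure D1:**
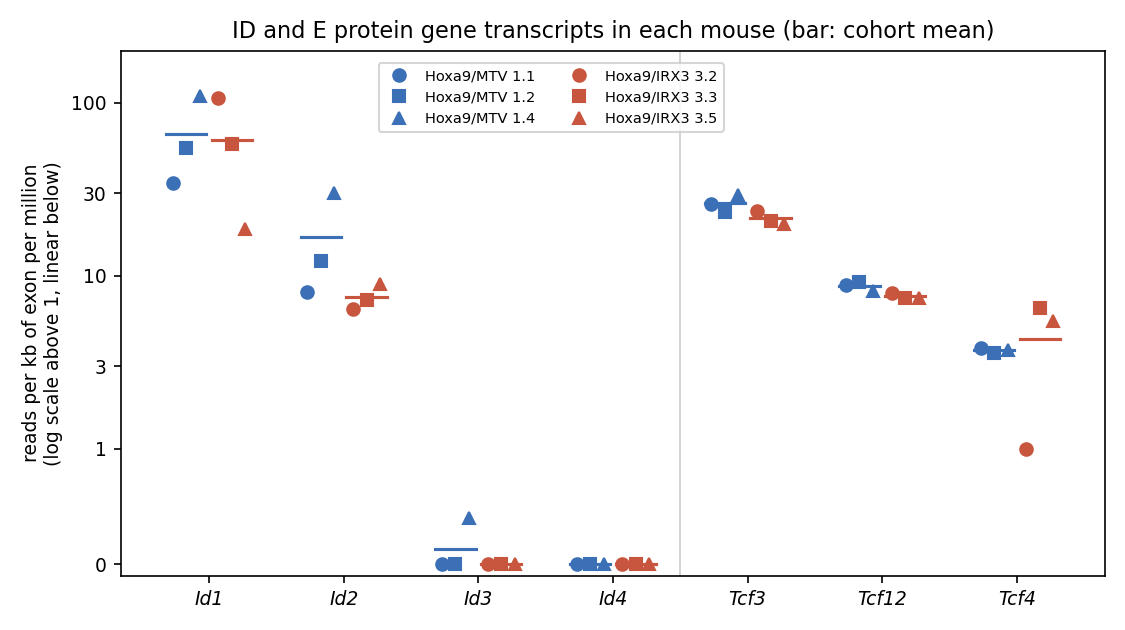
Exon level (reads per kilobase of merged exon scaled to the library, log axis above 1 and linear below) of the 7 genes in each mouse, with *Hoxa9*/MTV in blue, *Hoxa9*/*IRX3* in red and a bar at the cohort mean (n = 3). *Id1* spreads from 18.7 to 109.7 and *Tcf4* drops to 1.00 in mouse 3.2, while *Tcf3* and *Tcf12* stay in narrow bands.

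None of the 7 genes passed the test between cohorts. A limma fit over the 9522 protein-coding genes with more than 0.5 RPKM in at least 1 mouse called 510 genes at an adjusted p under 0.05, which is 5.36% of genes, with 1.84% higher and 3.52% lower in *Hoxa9*/*IRX3* cells. Under quantile normalization 234 genes were higher and 274 lower, against 175 and 335 here. Of the 7 genes 5 entered the test and 0 were called. At an unadjusted limma p under 0.05 the count was also 0 of 5, beside 2315 of all 9522 genes. *Tcf4* entered only through mouse 3.3 (0.516 RPKM), and *Tcf12* through mice 1.1 and 1.2. On the exon level, where 714 of 11853 genes were called (6.02%), the count of called genes was again 0 of 5. The number of mice left wide intervals for the ID genes, so that these counts do not show equal expression.

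*Id1* (ENSMUSG00000042745, chr2:152736251-152737410, plus strand) was the most abundant ID transcript in every mouse. It was at 34.4, 54.7 and 109.7 RPKM in mice 1.1, 1.2 and 1.4, and at 107, 57.6 and 18.7 RPKM in mice 3.2, 3.3 and 3.5. The cohorts overlapped over nearly their whole range, and the highest mouse of each cohort reached about the same level. The change was -0.28 on the log2(RPKM + 0.5) scale (SE 0.69, 95% interval -1.93 to 1.37, limma adjusted p = 0.831). It was 0.17 without mouse 1.4 and 0.40 without mouse 3.5, so its direction rested on single mice.

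*Id2* (ENSMUSG00000020644, chr12:25093799-25097140, minus strand), which opposes E proteins in the development of innate lymphoid and dendritic cells, had 8.04, 12.2 and 30.2 RPKM in mice 1.1, 1.2 and 1.4. The *Hoxa9*/*IRX3* mice 3.2, 3.3 and 3.5 had 6.40, 7.21 and 8.97 RPKM. Mouse 1.4 stood above all others, and mouse 1.1 lay within the range of the *Hoxa9*/*IRX3* mice. The mean was 16.8 ± 11.8 RPKM (SD, n = 3) against 7.53 ± 1.31, and the change of -0.91 (SE 0.45, 95% interval -1.99 to 0.17) did not pass (limma adjusted p = 0.267). Without mouse 1.4 it was -0.39.

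*Id3* (ENSMUSG00000007872, chr4:136143497-136145755, plus strand) was found only in mouse 1.4, at 0.320 RPKM from 7 reads. It had 0 reads in the other 5 mice, which allows up to 0.135 to 0.166 RPKM (3 reads). *Id4* (ENSMUSG00000021379, chr13:48261228-48266026, plus strand) had 0 reads in all 6 mice, which allows up to 0.0638 to 0.0783 RPKM. These limits cover counting error only. Mouse 1.4 was the mouse with the highest *Id1* and *Id2*, and the only mouse with reads of *Id3*.

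*Tcf3* (ENSMUSG00000020167, chr10:80409514-80433647, minus strand), whose product E2A starts the B cell program, was the most abundant E protein transcript per exon length in every mouse. Its exon level was 26.1, 23.5 and 29.2 in mice 1.1, 1.2 and 1.4, and 23.6, 20.8 and 19.95 in mice 3.2, 3.3 and 3.5. Mouse 3.2 lay just above mouse 1.2, so the cohorts overlapped by this pair alone. On the exon level the change was -0.28 (SE 0.14, 95% interval -0.61 to 0.05, limma adjusted p = 0.261). On the deposited scale it was -0.26 (SE 0.13, limma adjusted p = 0.267).

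*Tcf12* (ENSMUSG00000032228, chr9:71842688-72111871, minus strand), whose product HEB pairs with E2A in lymphocyte precursors, had exon levels of 8.83, 9.23 and 8.16 in mice 1.1, 1.2 and 1.4. The *Hoxa9*/*IRX3* mice 3.2, 3.3 and 3.5 had 7.98, 7.49 and 7.47. It was the only 1 of the 7 genes whose cohorts did not overlap, a pattern that 33.7% of all tested genes had. The change was -0.18 on the exon level (SE 0.14, limma adjusted p = 0.450) and -0.09 on the deposited scale (SE 0.12, limma adjusted p = 0.655). Reads of any other genes within its introns could not be separated here, and the same holds for *Tcf4*.

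*Tcf4* (ENSMUSG00000053477, chr18:69343356-69689079, plus strand), whose product E2-2 specifies plasmacytoid dendritic cells, showed the least even pattern among the E proteins. In the *Hoxa9*/MTV mice 1.1, 1.2 and 1.4 its exon level was 3.85, 3.57 and 3.72. In the *Hoxa9*/*IRX3* mice it was 1.00 in mouse 3.2, 6.48 in mouse 3.3 and 5.48 in mouse 3.5. No *Hoxa9*/*IRX3* mouse fell within the narrow range of the *Hoxa9*/MTV mice: mouse 3.2, where *Irx3* reads were most abundant, lay below it, and mice 3.3 and 3.5 lay above it. The values were based on 243 to 1739 reads per mouse. The change was -0.08 on the exon level (SE 0.56, 95% interval -1.42 to 1.25, limma adjusted p = 0.943) and 0.04 on the deposited scale (SE 0.23, limma adjusted p = 0.926). Without mouse 3.2 it was 0.62 on the exon level (limma adjusted p = 0.0851).

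**Figure D2:**
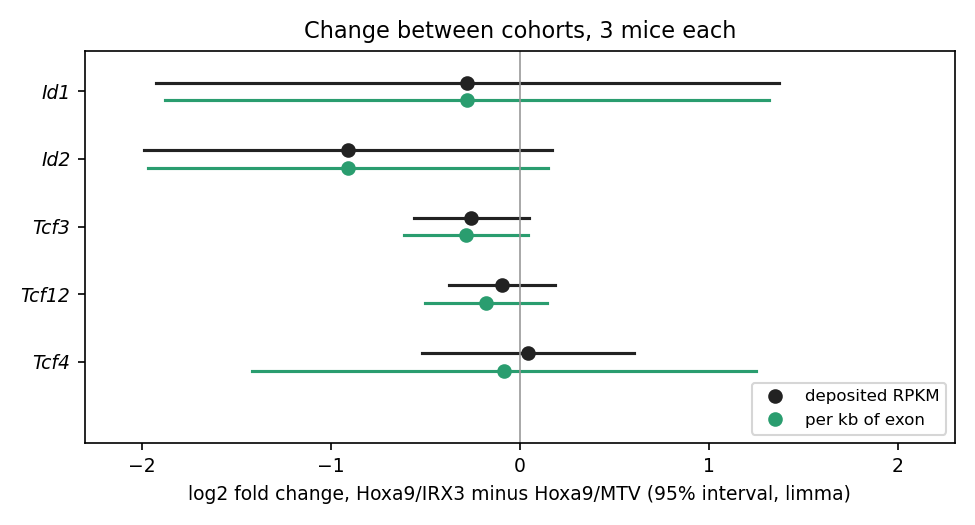
Log2 fold change with its 95% interval (limma, 3 mice per cohort) for the 5 tested genes, on deposited RPKM in black and per kilobase of exon in green. All intervals include 0, and that of *Id1* reaches from -1.93 to 1.37 on the deposited scale while that of *Tcf12* reaches from -0.37 to 0.19.

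The genes differed widely in how far they varied between mice of 1 cohort. The highest *Id1* level was 3.19-fold the lowest in *Hoxa9*/MTV mice (mouse 1.4 over 1.1, exact 95% interval 2.83 to 3.60) and 5.71-fold in *Hoxa9*/*IRX3* mice (mouse 3.2 over 3.5, interval 4.86 to 6.74). For *Id2* the ratio was 3.76 in *Hoxa9*/MTV mice (interval 3.16 to 4.49) but 1.40 in *Hoxa9*/*IRX3* mice (interval 1.11 to 1.78). *Tcf4* was the reverse, with 1.08 in *Hoxa9*/MTV mice (interval 0.981 to 1.19) and 6.47 in *Hoxa9*/*IRX3* mice (interval 5.65 to 7.43). For *Tcf3* and *Tcf12* no ratio exceeded 1.25. The intervals cover the counting error of the reads only.

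Set beside genes of like abundance (mean exon level within 2-fold), the SD of *Id1* on the log2 scale was 0.83 among *Hoxa9*/MTV mice, at percentile 98.8 of 1303 genes, and 1.26 among *Hoxa9*/*IRX3* mice, at percentile 96.6. *Id2* had an SD of 0.94 in *Hoxa9*/MTV mice (percentile 99.2 of 4815 genes) and 0.23 in *Hoxa9*/*IRX3* mice (percentile 41.4). *Tcf4* had 0.05 in *Hoxa9*/MTV mice (percentile 6.73 of 3687 genes) and 1.22 in *Hoxa9*/*IRX3* mice (percentile 92.7). *Tcf12* had 0.08 and 0.05, and its pooled SD was at percentile 1.62 of 4870 genes. Genes were matched on exon level and not on reads, of which *Tcf12* had 926 to 1226 per mouse, so counting error was not matched. These percentiles describe these libraries, and the difference in spread between cohorts was not tested.

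**Figure D3:**
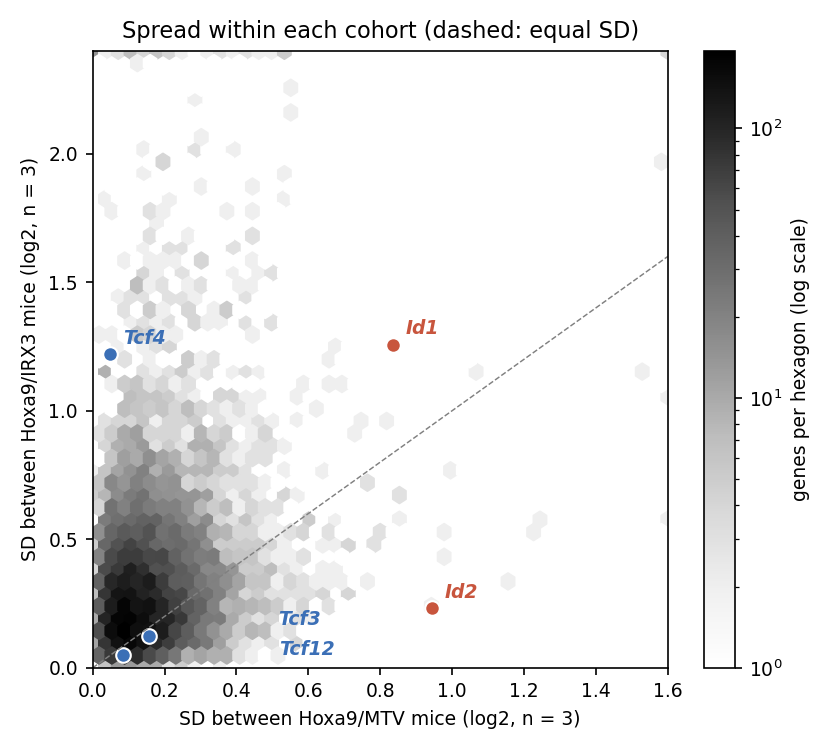
SD of the log2 exon level between the 3 mice of each cohort, for genes with a mean exon level of at least 2 (gray hexagons, log color scale; values beyond the axes are drawn at the edge) with the ID genes in red and the E protein genes in blue. *Id1* lies far from both axes, *Id2* is spread among *Hoxa9*/MTV mice (0.94), *Tcf4* among *Hoxa9*/*IRX3* mice (1.22), and *Tcf3* and *Tcf12* lie near the origin.

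The order of the mice differed between genes. Among *Hoxa9*/MTV mice *Id1* and *Id2* both increased in the order 1.1, 1.2 and 1.4. Among *Hoxa9*/*IRX3* mice *Id1* was highest in 3.2 and lowest in 3.5, whereas *Id2* was lowest in 3.2 and highest in 3.5. *Tcf3*, *Tcf12* and *Irx3* had the order of *Id1* among these 3 mice. For *Tcf12* this order lay within counting error, with the highest mouse 1.07-fold the lowest (exact 95% interval 0.977 to 1.17). *Irx3* had only 14 and 4 reads in mice 3.3 and 3.5. Over all 6 mice the Pearson r of *Id1* was 0.357 with *Id2*, 0.577 with *Tcf3*, 0.130 with *Tcf12* and -0.582 with *Tcf4*. That of *Id2* was 0.675 with *Tcf3*, 0.222 with *Tcf12* and 0.160 with *Tcf4*. These correlations describe 6 libraries of both cohorts and carry no test.

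Because ID proteins act by titrating E proteins, the summed transcripts were set against each other. ID transcripts summed to exon levels of 42.5, 66.9 and 140.3 in mice 1.1, 1.2 and 1.4, and to 113, 64.8 and 27.7 in mice 3.2, 3.3 and 3.5. E protein transcripts summed to 38.8, 36.3 and 41.1, and to 32.6, 34.8 and 32.9. The E protein sums of the cohorts did not overlap on this scale, but they overlapped with the length of the principal transcript (66.2 to 72.0 against 55.2 to 67.7), which gives *Tcf4* more weight.

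The ratio of ID to E protein transcripts was 1.09, 1.85 and 3.41 in *Hoxa9*/MTV mice 1.1, 1.2 and 1.4. It was 3.47, 1.86 and 0.840 in *Hoxa9*/*IRX3* mice 3.2, 3.3 and 3.5. The ranges of the cohorts overlapped widely, with means of 2.12 ± 1.18 and 2.06 ± 1.32 (SD, n = 3). With principal transcript lengths the ratios were lower, at 0.746, 1.24 and 2.39 in *Hoxa9*/MTV mice and 2.53, 1.18 and 0.532 in *Hoxa9*/*IRX3* mice, and thus below 1 in 1 mouse of each cohort. *Id1* made up 78.2% to 81.7% of ID transcripts in *Hoxa9*/MTV mice, and 94.3%, 88.9% and 67.6% in mice 3.2, 3.3 and 3.5. Protein was not measured.

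**Figure D4:**
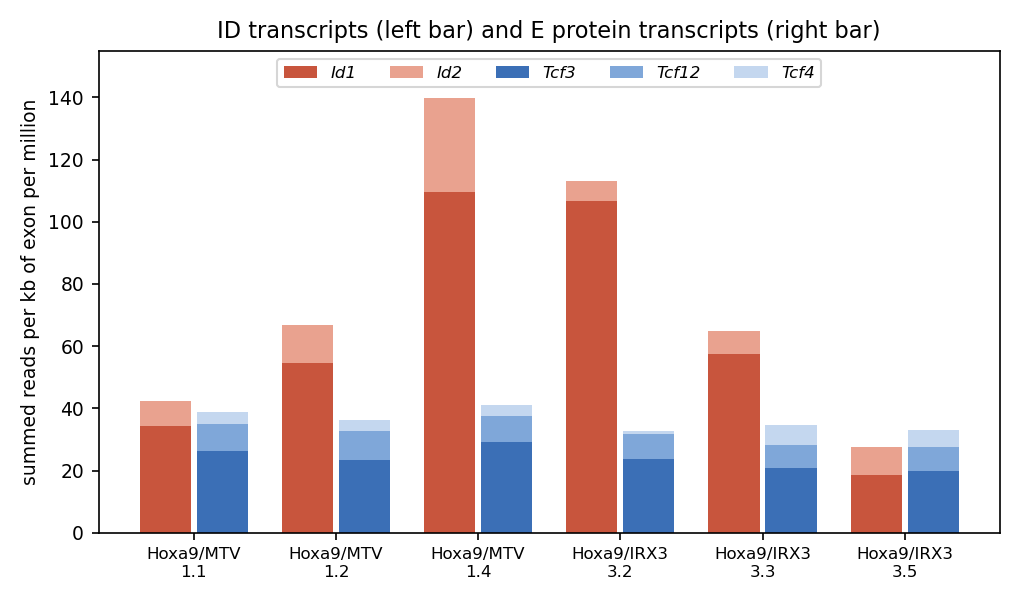
Stacked exon levels in each mouse, with *Id1* and *Id2* in the left bar and *Tcf3*, *Tcf12* and *Tcf4* in the right bar; the 0.404 of *Id3* in mouse 1.4 is not drawn. The ID sums range from 27.7 to 140.3 with *Id3* while the E protein bars range from 32.6 to 41.1, and on this scale the ID bar is the shorter in mouse 3.5 only.

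The genes whose pattern over the 6 mice was most like that of the tested ID genes were sought among the 2538 tested genes that averaged 5 RPKM or more. For *Id1* these were *Tusc1* (r = 0.996), *Znhit2* (r = 0.971) and *Mrpl40* (r = 0.965), a mitochondrial ribosomal protein gene. *Tusc1* had 23.5, 27.3 and 34.1 RPKM in mice 1.1, 1.2 and 1.4 and 32.8, 27.5 and 20.6 in mice 3.2, 3.3 and 3.5, a far smaller range than *Id1*. For *Id2* they were *Syf2* (r = 0.954), *Dnajb1* (r = 0.941), a heat shock co-chaperone gene, and *2510039O18Rik* (r = 0.935). *Dnajb1* was at 41.3 RPKM in mouse 1.4 and at 21.3 to 27.3 in the other mice. These likenesses are descriptions over 6 mice, with the highest of many values chosen.

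Genes that act with, upstream or downstream of the ID and E proteins were taken from 9 further lists. Without the 7 genes these lists held 143 different genes, of which 69 were tested. Of these, 2 rose and 3 fell, which is 7.25% beside the 5.36% of all tested genes. Their median change was -0.10, and that of all tested genes -0.06. All 5 calls depended on the mice included. Leaving out each mouse in turn, the count over the lists ran from 0 (without mouse 1.1 or 1.4) to 7 (without mouse 3.3), with 1 without mouse 1.2 and 3 without mouse 3.5. The count over all tested genes moved as well, from 510 to 76, 66 and 61 without mice 1.1, 1.2 and 1.4. It was 761, 678 and 482 without mice 3.2, 3.3 and 3.5, so this dependence was not particular to the lists.

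Among the partners, 0 of 3 tested tissue-restricted bHLH genes were called, and 13 of the 16 listed were below the threshold. *Lyl1*, which forms complexes with E proteins in blood progenitors, was abundant at 95.7 ± 21.2 RPKM in *Hoxa9*/MTV and 91.9 ± 22.2 in *Hoxa9*/*IRX3* mice. Its change was -0.07 (limma adjusted p = 0.891). The cofactors of E protein complexes gave 0 calls of 10, with a median of -0.09. *Lmo2*, a bridge in these complexes, was at 14.7 RPKM and 10.02 RPKM on average (limma adjusted p = 0.275), and *Ldb1*, its dimerizing partner, at 11.1 and 7.06 (limma adjusted p = 0.115). The enzymes that mark or stabilize ID and E proteins for turnover gave 0 calls of 13. *Usp1*, which removes ubiquitin from ID proteins, was at 15.1 and 15.3 RPKM (change 0.02, limma adjusted p = 0.949). *Lyl1*, *Lmo2*, *Ldb1* and *Usp1* were chosen after their values were seen.

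Upstream, 0 of 13 tested receptors, SMADs and regulators of BMP and TGF-beta signaling were called, with a median of -0.18. *Smad1*, which carries the BMP signal to genes such as *Id1*, had 0.184 and 0.552 RPKM on average, with cohorts that did not overlap and a change of 0.62 that did not pass (limma adjusted p = 0.0663). Of the ligands 2 were tested and 0 called, and *Tgfb1* was at 29.1 and 23.3 RPKM (limma adjusted p = 0.246). *Smad1* and *Tgfb1* were likewise chosen after their values were seen.

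Downstream, 5 of the 24 lymphoid E protein targets were tested, and 2 fell. *Cd79b*, a chain of the B cell receptor complex, was at 6.11, 7.07 and 7.01 RPKM in mice 1.1, 1.2 and 1.4 and at 0.330, 0.149 and 2.31 in mice 3.2, 3.3 and 3.5. Its change was -2.65 (SE 0.52, limma adjusted p = 0.0383), and it was called in 1 of 6 fits without a mouse (adjusted p up to 0.154). *Flt3*, a cytokine receptor of early progenitors that is listed under both *Tcf3* and *Tcf4* targets, was at 0.999, 0.604 and 0.883 RPKM in *Hoxa9*/MTV mice and at 0.0252 or less in all *Hoxa9*/*IRX3* mice. It fell by 1.35 on the log2 scale (SE 0.16, limma adjusted p = 0.0102; called in 4 of 6 fits without a mouse).

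*Igll1*, a surrogate light chain gene activated by E2A, was chosen after its values were seen. It averaged 0.0687 ± 0.0357 RPKM in *Hoxa9*/MTV and 16.2 ± 19.6 in *Hoxa9*/*IRX3* mice, a change of 3.92 that did not pass (limma adjusted p = 0.0776). Of the B cell markers *Pax5* and *Ms4a1* were at 0 in all mice, and 3 of the 10 were tested: *Cd79b*, *Igll1* and *Vpreb1*. *Vpreb1* averaged 0.104 and 1.11 RPKM and did not pass (change 1.08, limma adjusted p = 0.272). The summed level of the 10 markers was 38.2 to 62.1 RPKM in *Hoxa9*/MTV and 6.40 to 48.1 in *Hoxa9*/*IRX3* mice. In *Hoxa9*/MTV mice, where *Cd79b* averaged 6.73 RPKM, most of this sum came from markers outside the test. The part of B-lineage cells in these values was not tested, and in bulk RNA fewer cells of a type and less RNA per cell cannot be told apart.

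Of 7 tested plasmacytoid dendritic cell genes under E2-2, 1 rose and 1, *Flt3*, fell. *Bcl11a*, a transcription factor gene, had 0.109, 0.0363 and 0.0291 RPKM in *Hoxa9*/MTV mice and 1.27, 1.12 and 0.652 in mice 3.2, 3.3 and 3.5. It rose by 1.42 (SE 0.20, limma adjusted p = 0.0153; called in 3 of 6 fits without a mouse). Its level was highest in mouse 3.2, where *Tcf4* was lowest. *Irf8*, chosen after its values were seen, averaged 30.7 and 22.9 RPKM (change -1.79, limma adjusted p = 0.367). The 7 markers of plasmacytoid dendritic cells summed to 8.79 to 11.5 RPKM in *Hoxa9*/MTV and 8.96 to 15.2 in *Hoxa9*/*IRX3* mice, nearly all of it *Bst2*, and *Klk1* was at 0.

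Of 6 tested inhibitors of cyclin-dependent kinases, whose genes E proteins can activate, 1 rose. *Cdkn1c*, which encodes p57, was at 1.00, 0.669 and 1.07 RPKM in *Hoxa9*/MTV mice 1.1, 1.2 and 1.4. It was at 2.59, 6.61 and 11.8 in mice 3.2, 3.3 and 3.5, all above the other cohort, and among these 3 mice it had the reverse order of *Id1*. The change was 2.203 (SE 0.47, limma adjusted p = 0.0498), and it was called in 1 of 6 fits without a mouse (adjusted p up to 0.183). *Cdkn1a* (p21), chosen after its values were seen, had 5.07 and 4.81 RPKM on average, with a change of -0.02 (limma adjusted p = 0.983).

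Among 12 tested repressors and factors that bind E-boxes without belonging to the E proteins, 1 fell. *Usf2*, a leucine zipper bHLH factor, was at 9.43, 9.90 and 11.6 RPKM in mice 1.1, 1.2 and 1.4 and 6.19, 6.53 and 5.51 in mice 3.2, 3.3 and 3.5. Its change was -0.71 (SE 0.14, limma adjusted p = 0.0369; called in 2 of 6 fits without a mouse). Its paralog *Usf1*, chosen after its values were seen, was at 7.81 and 4.91 RPKM (limma adjusted p = 0.0790).

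**Figure D5:**
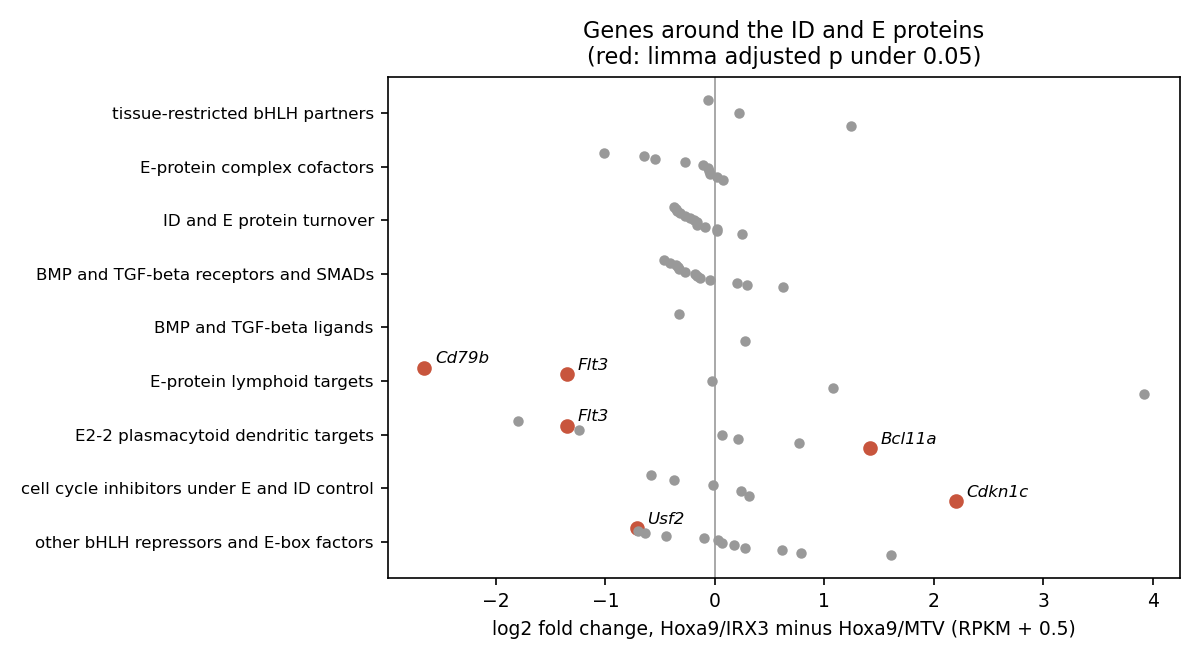
Log2 fold change on RPKM + 0.5 for each tested gene of the 9 further lists, with genes past a limma adjusted p of 0.05 in red and named. The 5 red genes are *Cd79b*, *Flt3* (in 2 lists), *Bcl11a*, *Cdkn1c* and *Usf2*, and most partners, cofactors and turnover genes lie within 0.5 of 0.

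Other cell types were followed beside these values. The summed RPKM of 13 neutrophil markers was 3131 to 4613 in *Hoxa9*/MTV and 6899 to 7550 in *Hoxa9*/*IRX3* mice, with 1 marker, *Elane*, called higher. The primary granule genes *Elane* (794 and 2964 RPKM on average), *Mpo* (620 and 1000.4) and *Ctsg* (417 and 881) made up much of the difference in the sums, while the changes of *Ltf* (-0.99), *Mmp8* (-0.75) and *Ngp* (-0.13) were negative and did not pass (limma adjusted p = 0.315, 0.320 and 0.870). Of 7 tested monocyte and macrophage markers 2 fell, *Cd68* with a change of -2.68 (limma adjusted p = 0.0135) and *Ccr2* with -2.06 (limma adjusted p = 0.00843). The median over these 7 was -1.48, and the summed level, largely *Ly6c2* and *Mpeg1*, was 970 to 1061 and 543 to 1326 RPKM. Of 4 tested dendritic cell and MHC class II markers 1, *Flt3*, fell, with a median of -0.74 and sums of 3.89 to 6.05 and 0.186 to 6.00 RPKM. The sum of 7 mast cell and basophil markers was 16.1 to 21.8 and 4.80 to 8.02, with 2 called lower. *Ms4a2* of the same list went the other way, at 0.370 and 0.877 RPKM on average, and did not pass (change 0.66, limma adjusted p = 0.103). The T and NK cell sum was 22.7 to 33.0 and 14.9 to 482, most of it *Nkg7*, and *Cd3d*, *Trbc2*, *Ncr1* and *Gzma* were at 0. The erythroid sum, with 1 of 9 markers over 0.5 RPKM and *Alas2* and 3 globin genes at 0, was 4.99, 5.52 and 6.99 in mice 1.1, 1.2 and 1.4 and 8.46, 5.14 and 4.66 in mice 3.2, 3.3 and 3.5, highest in the same 2 mice as *Id1* and lowest in mouse 3.5 like *Id1*. The megakaryocyte sum was 3.87 to 5.97 and 1.62 to 12.8, and that of stroma 1.83 to 1.98 and 0.568 to 6.34, with 0 markers called in these 3 lists. The part of these cell types in the levels of the ID and E protein genes was not tested.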

How the data were processed

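RNA of sorted KIT+Gr1+ leukemia cells from 6 mice was analyzed, 3 per cohort, grouped by the sample labels. The authors made strand-specific polyA libraries, sequenced paired ends of 75 bases, aligned to GRCm38 with Bowtie2 2.2.1, kept alignments with a Phred quality of at least 20 (SAMtools 0.1.19), counted on Ensembl v76 genes and deposited RPKM in 1 table. All columns of sample values were used (0 left out).

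Reads behind each RPKM were recovered from the steps between low values. With the length nearest to the GENCODE M21 span that gave whole reads in all mice (within 0.01), 99.6% of tested genes had whole reads (65.0% on the span itself; for genes with few reads a length may fit by chance). Reads per gene summed to 104% to 105% of the recovered libraries, so some reads lie on more than 1 gene. Exon levels divide these reads by merged exon length, capped at the recovered length.

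Protein-coding genes over 0.5 RPKM in at least 1 mouse were fitted on log2(RPKM + 0.5) by limma 3.58.1 under R 4.3.3 (variance trend, Benjamini-Hochberg adjustment over all 9522 genes), and again on exon levels with a pseudocount of 0.5. Because of the pseudocount, changes of low genes are understated. An exact test of 3 against 3 mice cannot reach a p under 0.1. In simulated data for this comparison on 9522 genes, 26 of 100 genes changed 2-fold and 64 of 100 changed 4-fold were called, with 5 unchanged genes. The simulation gave both cohorts 1 averaged spread per gene, whereas the median SD in the data was 0.16 in *Hoxa9*/MTV and 0.32 in *Hoxa9*/*IRX3* mice. Mice were taken as separate animals, and their numbers pair nothing.

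The 7 genes and all lists were chosen with earlier results of these data known. Named are the 7 genes, up to 3 called genes with the largest change per list, the 3 genes most like each tested ID gene, *Irx3* and *Hoxa9*; other names are marked as chosen after their values were seen, apart from markers. Tables were handled with Python 3.11.15, numpy 2.4.6, pandas 2.3.3 and scipy 1.17.1. The start regions of *Id1* and *Tcf4* were not analyzed here.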

Additional observations from a re-analysis of the deposited data

How the results depend on the processing

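No alternative brought any of the 7 genes past the threshold: other pseudocounts, filters, scalings, weights, lengths, voom on recovered reads, the unadjusted criterion of the study and leaving out each mouse. *Id2*, *Tcf3* and *Tcf12* kept their negative direction in all, *Id2* from -1.31 to -0.39. *Id1* ran from -0.84 to 0.40 when mice were left out, on both scales, and was 0.17 without mouse 1.4 and 0.40 without mouse 3.5. *Tcf4* was -0.019 with a pseudocount of 0.1, -0.084 on merged exon length, -0.17 with voom, and -0.052 to 0.29 when mice were left out, with no value without mouse 3.3, where it was below the filter. Its exon-level change ran from -0.49 (without mouse 3.3) to 0.62 (without mouse 3.2). The 510 genes called became 326 over all gene types, an alternative chosen after seeing the data like those of the exon scale, and 61 to 761 without 1 mouse, the lowest without mice 1.1 (76), 1.2 (66) and 1.4 (61). The 5 calls over the lists became 3 with no filter, 3 with a mean over 1 RPKM, 3 with median-of-ratios scaling, 2 over all gene types and 0 to 7 without 1 mouse. The causes were not tested. Median-of-ratios scaling moved the median change of all genes from -0.06 to 0.01, and 43.6% of its calls were higher, against 34.3%. No paired analysis was possible because the mice of both cohorts share no numbers. Depth limits *Id3* and *Id4*, and 3 mice per cohort with a wide spread limit *Id1* and *Tcf4*.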
